A study of Arabidopsis thaliana with 9 samples.

Results

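Class III peroxidases are secreted heme enzymes of plants. A list of 60 such genes of Arabidopsis thaliana was taken by locus, and 52 of these had a probe set paired with exactly 1 gene, out of 16548 genes tested. The other 8 (AT1G05240, AT1G05250, RCI3, PER4, PRXCB, PA2, RHS18 and PER64) were not analysed here. Of the 52 genes, 15 stand in a list of root-expressed peroxidases drawn up from general knowledge of the family, and 37 do not. Transcript levels were measured on whole-transcript arrays in whole plants aged 21 days, with 3 arrays per group. One group was exposed to 50 mg per L of 2,5-DCB (2,5-dichlorobiphenyl, a lightly chlorinated PCB), and another to 5 mg per L of 4'-OH-2,5-DCB, which carries a hydroxyl group in addition. The control plants received acetone alone. The doses differ, so compound and dose cannot be told apart in any comparison of the exposures. Each treatment had 6 boxes of 5 plantlets, and the labels do not say which boxes an array came from, so the p-values reflect array-to-array spread, and some or all of it may be technical.

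Class III peroxidases use hydrogen peroxide to oxidise phenolic compounds in the cell wall. They join monolignols into lignin, cross-link extensins (structural wall glycoproteins), and can also produce reactive oxygen species in the apoplast. The family is large, many members lie side by side in the genome as tandem copies, and many are active mainly in roots, where they act in root hairs, the endodermis and the elongating zone.

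All values below are log2 signals as deposited, and a change is a difference of group means on that scale. Array medians ran from 4.69 to 4.91. Replicate 1 of 4'-OH-2,5-DCB stood apart: its signals were compressed, with an SD across probe sets of 1.68 and a 25th percentile of 3.72, against 2.13 to 2.20 and 2.80 to 3.01 on the other 8 arrays. For the members, calls that change when it is left out are given with the value without it. The labelled tissue, whole plant, was checked on root and leaf markers. A probe set was present for 3 of 15 listed root markers and 3 of 15 leaf markers. The root gene PYK10 and the leaf genes RCA, LHCB4.1 and LHCB4.2 were above a log2 signal of 8 on every array. The other root markers, the expansin genes EXPA7 and EXPA18, were dim, with mean signals of 3.46 and 3.08.

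Under 2,5-DCB, 7 of the 52 peroxidase genes rose and 0 fell (limma adjusted p under 0.05), against 1.82% of all tested probe sets that rose and 2.82% that fell (4.65% in either direction). Under 4'-OH-2,5-DCB, 7 rose and 0 fell, against 1.00% and 1.90% (2.91% in either direction). At an unadjusted p under 0.05 the counts were 16 genes with 2,5-DCB (16.1% of all probe sets) and 25 with 4'-OH-2,5-DCB (17.3%). The genes that rose were Prx37, AT4G11290 and AT4G30170 under both exposures, PRX52, AT4G37520, AT4G37530 and AT5G06730 under 2,5-DCB, and AT2G35380, AT2G38390, AT4G36430 and AT5G64100 under 4'-OH-2,5-DCB. The median change of the 52 genes was 0.41 with 2,5-DCB and 0.44 with 4'-OH-2,5-DCB, beside 0.04 and 0.10 for all tested probe sets. Under 4'-OH-2,5-DCB the members' median was 0.68 without replicate 3 (all probe sets 0.13) and 0.26 after quantile normalization (all probe sets -0.04). All 3 exposed arrays lay above all 3 control arrays for 22 genes with 2,5-DCB (16.8% of all probe sets) and for 20 with 4'-OH-2,5-DCB (11.2%). All 3 lay below for 3 genes (14.1%) and 0 genes (11.4%). Both comparisons use the same control arrays, so their values are not independent of each other.

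The counts depended on which arrays entered. Under 2,5-DCB the count of genes called was 12, with 11 higher, when replicate 1 of 4'-OH-2,5-DCB was left out, against 12.9% of all probe sets called in that fit and 5.92% called higher. It was 4 without control replicate 1, 2 without control replicate 2, 4 without control replicate 3, and 4 without 2,5-DCB replicate 2 or without replicate 3. Calls over all 16722 probe sets fell as well, to 154, 52, 96, 60 and 64 higher in those 5 fits, against 305 with every array. Under 4'-OH-2,5-DCB it was 15, all higher, without replicate 1 of that group (3.41% of all probe sets were higher and 3.74% lower), 3 without its replicate 2, and 4, 1 and 2 without control replicate 1, 2 and 3. In the last 4 of these fits 73, 59, 22 and 36 of all probe sets were higher, against 168 with every array. In each of these fits every called gene but 1 was higher in the exposed plants; that gene was AT1G71695, lower by 0.51 under 2,5-DCB (adjusted p 0.0358) without 4'-OH-2,5-DCB replicate 1.

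**Figure D1:**
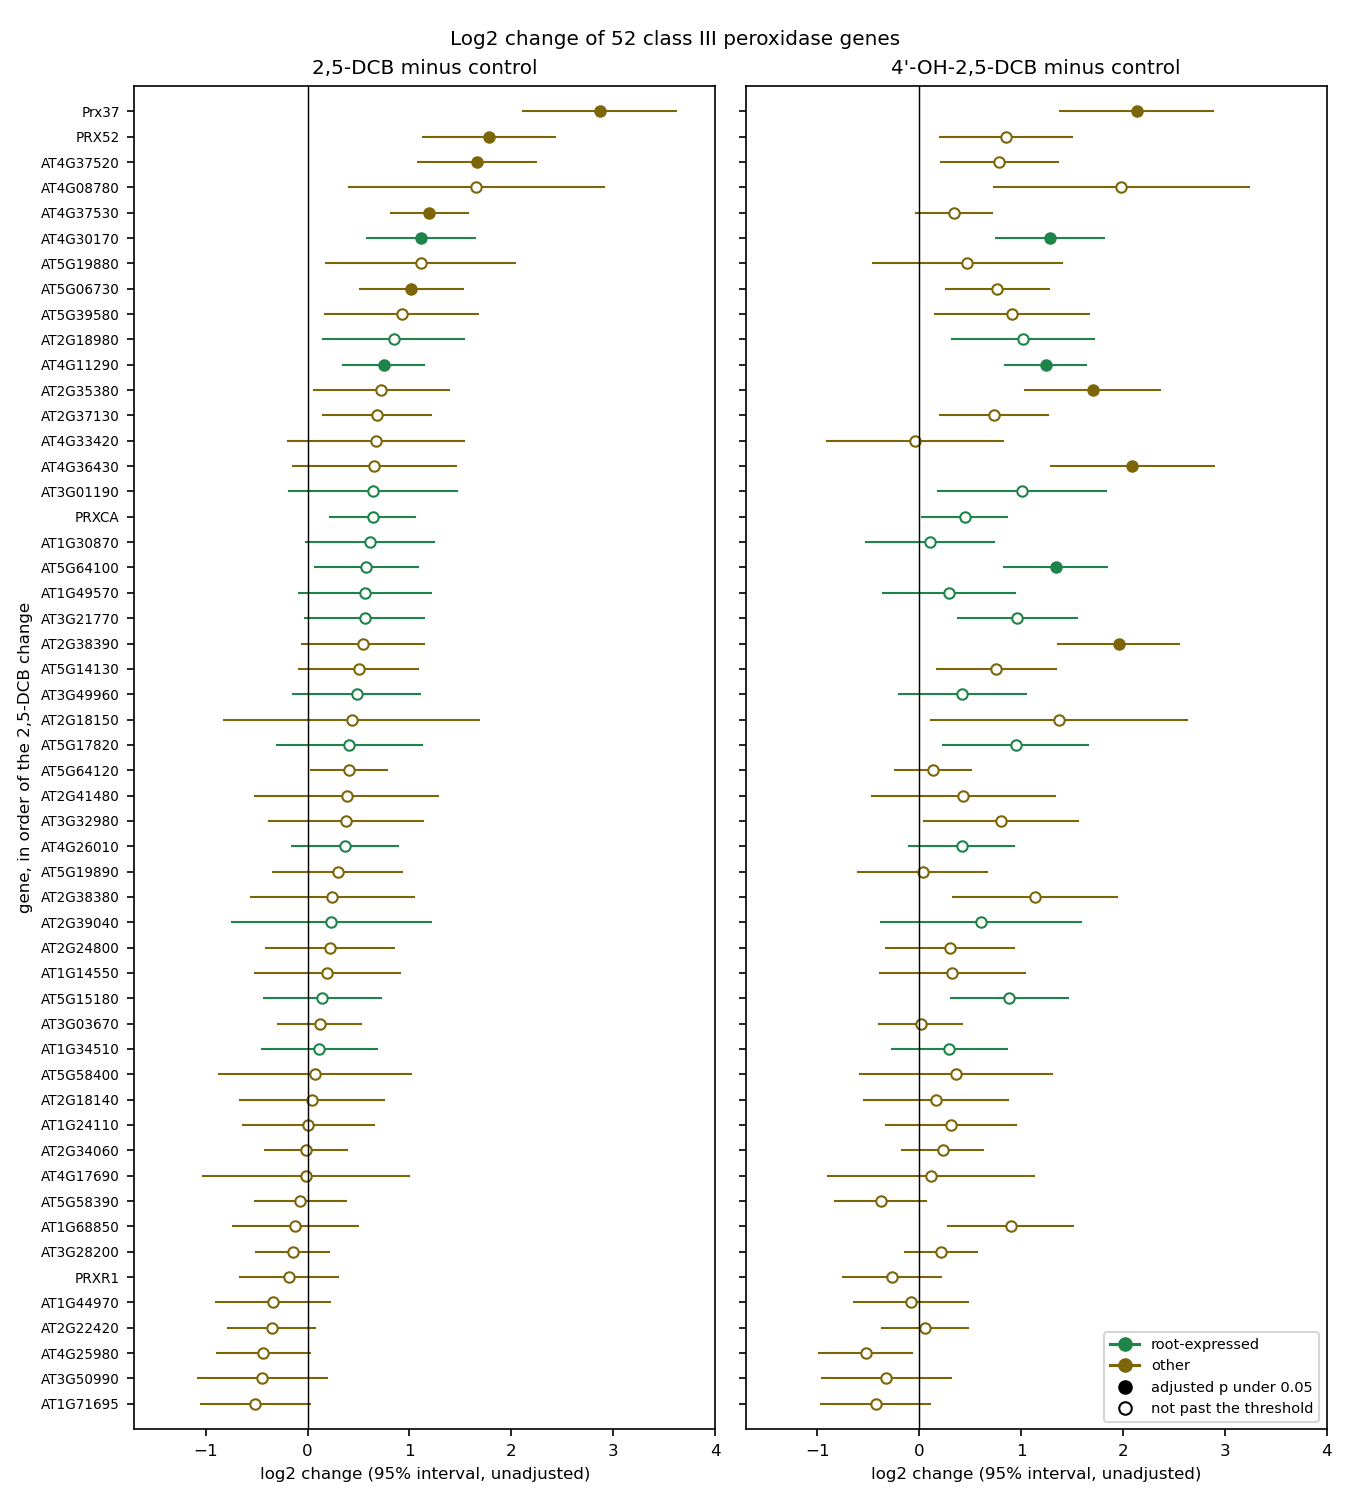
Log2 change (x axis) of the 52 peroxidase genes (y axis, in order of the 2,5-DCB change) under 2,5-DCB (left) and 4'-OH-2,5-DCB (right), each minus control, with unadjusted 95% intervals; filled points passed an adjusted p of 0.05. Prx37 stands at 2.87 and 2.14, and the 15 root-expressed genes (green) all lie right of 0 in both panels (13 of the 15 under 4'-OH-2,5-DCB after quantile normalization, or without replicate 1 of that group).

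Prx37 (AT4G08770), a wall peroxidase whose overexpression is known to dwarf Arabidopsis plants, had the largest change of the family under 2,5-DCB and one of the largest, beside AT4G36430, under 4'-OH-2,5-DCB. Its log2 signals were 8.17, 8.68 and 9.38 under 2,5-DCB and 7.56, 8.57 and 7.91 under 4'-OH-2,5-DCB, against 5.96, 5.69 and 5.98 in the control. Every exposed array was above every control array by more than 1.5 on the log2 scale. The gene rose 7.29-fold under 2,5-DCB (log2 change 2.87, SE 0.33, limma adjusted p 0.00303) and 4.39-fold under 4'-OH-2,5-DCB (2.14, SE 0.33, adjusted p 0.0131). The 2,5-DCB call held under each of the 17 alternatives run. The 4'-OH-2,5-DCB call was lost without control replicate 2 (adjusted p 0.0729) or control replicate 3 (adjusted p 0.0518).

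AT4G30170, a root-expressed member, read 6.99, 7.31 and 7.03 under 2,5-DCB and 7.06, 7.71 and 7.09 under 4'-OH-2,5-DCB, against 6.23, 5.62 and 6.14 in the control. The exposed groups overlapped each other and neither overlapped the control. The changes were 1.11 (SE 0.24, limma adjusted p 0.0316) under 2,5-DCB and 1.29 (SE 0.24, adjusted p 0.0245) under 4'-OH-2,5-DCB. The call under 2,5-DCB was lost without any single control or 2,5-DCB array (adjusted p 0.0619 to 0.140). With the replicate number as a block in the fit, the calls under both exposures were lost (adjusted p 0.0813 under 2,5-DCB). The 4'-OH-2,5-DCB call was also lost without control replicate 1, 2 or 3, 2,5-DCB replicate 3 or 4'-OH-2,5-DCB replicate 2 (adjusted p 0.0526 to 0.107). It was lost with the compared arrays alone as well (adjusted p 0.104).

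AT4G11290, also root-expressed, had signals of 5.55, 5.62 and 5.91 under 2,5-DCB and 6.01, 6.37 and 6.18 under 4'-OH-2,5-DCB, against 5.12, 4.94 and 4.77 in the control. Its 3 groups did not overlap at all, with 4'-OH-2,5-DCB highest. It rose by 0.75 (SE 0.18, limma adjusted p 0.0461) under 2,5-DCB and by 1.24 (SE 0.18, adjusted p 0.00924) under 4'-OH-2,5-DCB. With 1 array left out, the 2,5-DCB call held only without 4'-OH-2,5-DCB replicate 1, and otherwise the adjusted p was 0.0555 to 0.173 (0.0555 and 0.0680 without 4'-OH-2,5-DCB replicate 2 and 3, the rest without a control or 2,5-DCB array). It was also lost with array medians centred (adjusted p 0.0679), with all probe sets adjusted for (adjusted p 0.0678) or with the replicate number as a block (adjusted p 0.117). The 4'-OH-2,5-DCB call was lost without control replicate 2 (adjusted p 0.0539) and with the compared arrays alone (adjusted p 0.0528).

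**Figure D2:**
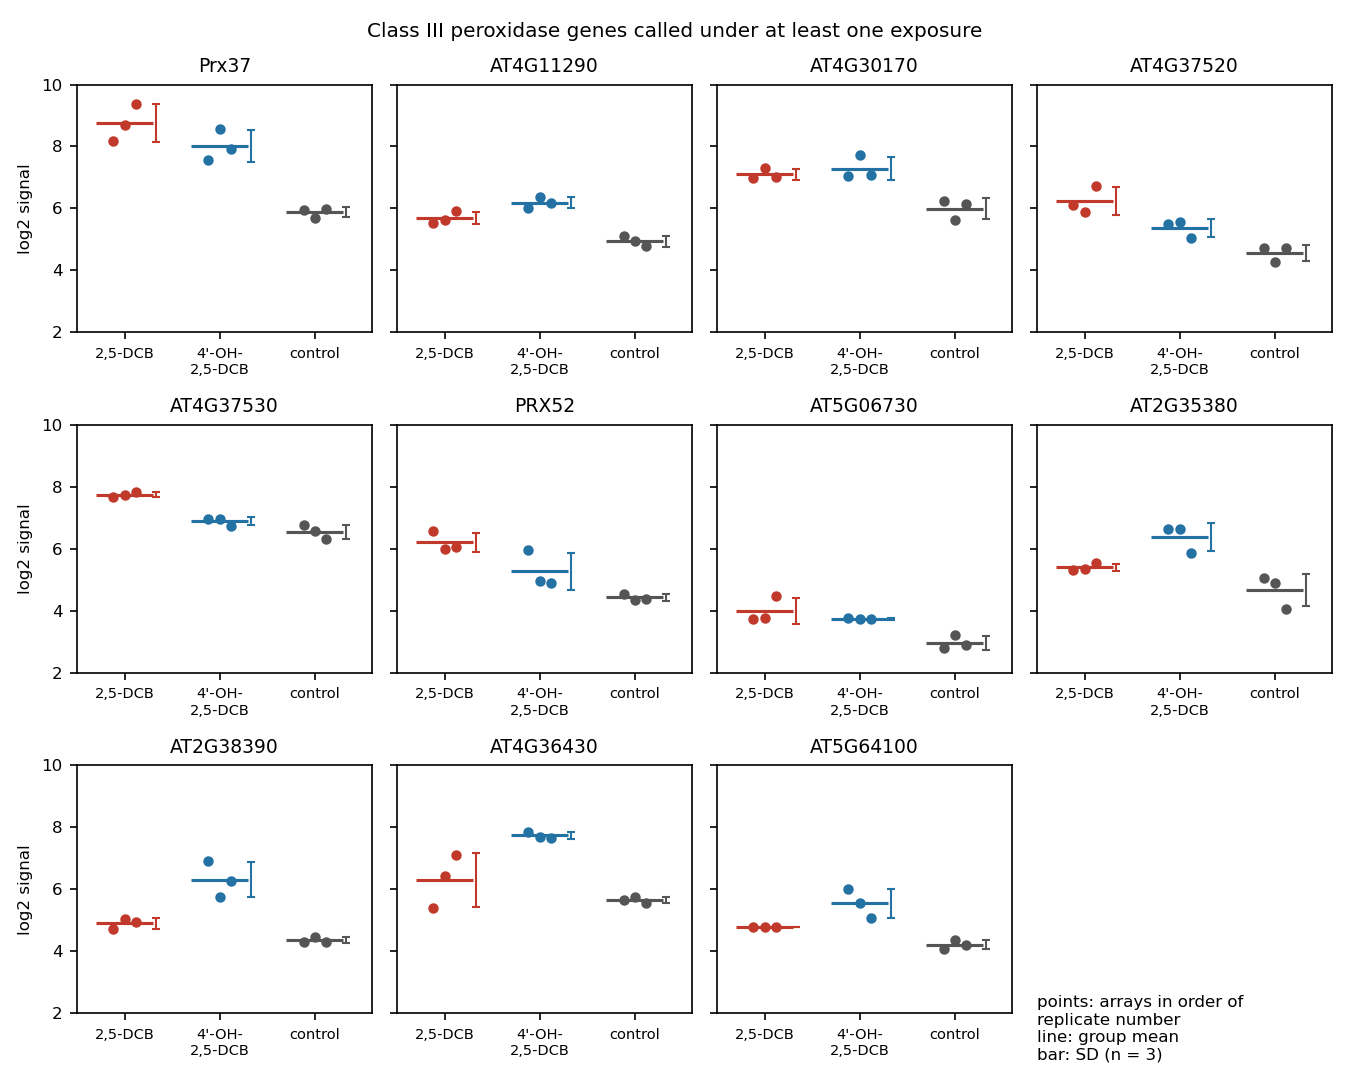
Log2 signal (y axis) of the 11 peroxidase genes called under at least 1 exposure, by group (x axis: 2,5-DCB, 4'-OH-2,5-DCB, control); points are arrays, lines group means and bars SD (n = 3). Prx37 shows the widest gap to the control, and AT4G36430 is high on the 3 arrays of 4'-OH-2,5-DCB and scattered under 2,5-DCB.

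Of the genes called under 2,5-DCB and not under 4'-OH-2,5-DCB, PRX52, a peroxidase known for its part in stem lignin, changed most. Its signals were 6.57, 5.997 and 6.06 under 2,5-DCB and 5.97, 4.97 and 4.90 under 4'-OH-2,5-DCB, against 4.54, 4.36 and 4.39 in the control. Both exposed groups lay above the control, and the highest 4'-OH-2,5-DCB value came from replicate 1. PRX52 rose 3.44-fold under 2,5-DCB (log2 change 1.78, SE 0.29, limma adjusted p 0.0109), and its change of 0.85 under 4'-OH-2,5-DCB did not pass (adjusted p 0.173). Without control replicate 2 the 2,5-DCB adjusted p was 0.0598.

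The neighbours AT4G37520 and AT4G37530 both rose under 2,5-DCB. AT4G37520 read 6.11, 5.87 and 6.73 under 2,5-DCB and 5.49, 5.56 and 5.03 under 4'-OH-2,5-DCB, against 4.71, 4.27 and 4.73 in the control. AT4G37530 read 7.67, 7.72 and 7.84 under 2,5-DCB and 6.97, 6.97 and 6.73 under 4'-OH-2,5-DCB, against 6.77, 6.57 and 6.31 in the control. For both genes the 2,5-DCB arrays were the highest 3 of the 9. AT4G37520 rose 3.17-fold under 2,5-DCB (1.67, SE 0.26, limma adjusted p 0.00946) and AT4G37530 2.29-fold (1.20, SE 0.17, adjusted p 0.00601). Their changes of 0.79 and 0.34 under 4'-OH-2,5-DCB did not pass (adjusted p 0.157 and 0.331). The call of AT4G37530 held under each of the 17 alternatives, and that of AT4G37520 was lost without control replicate 2 (adjusted p 0.0540).

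AT5G06730 had signals of 3.72, 3.76 and 4.49 under 2,5-DCB and 3.77, 3.72 and 3.72 under 4'-OH-2,5-DCB, against 2.79, 3.22 and 2.90 in the control. Control replicate 1 was below the 25th percentile of its array, so the dim side may be background and the size of the change is uncertain. The gene rose by 1.02 under 2,5-DCB (SE 0.22, limma adjusted p 0.0359), and with 1 array left out the call held only without 4'-OH-2,5-DCB replicate 1. The adjusted p was 0.0543 and 0.0555 without replicate 2 and 3 of that group and 0.0561 to 0.125 without a control or 2,5-DCB array. The call was also lost after quantile normalization (adjusted p 0.0600), with all probe sets adjusted for (adjusted p 0.0556) and with the replicate number as a block (adjusted p 0.076).

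Among the genes called under 4'-OH-2,5-DCB and not under 2,5-DCB, AT4G36430 changed most. It read 5.38, 6.42 and 7.09 under 2,5-DCB and 7.86, 7.69 and 7.66 under 4'-OH-2,5-DCB, against 5.65, 5.74 and 5.54 in the control. The 4'-OH-2,5-DCB arrays lay close together (SD 0.11), whereas the 2,5-DCB arrays spread across the control values and above them (SD 0.86). The rise under 4'-OH-2,5-DCB was 4.26-fold (2.09, SE 0.35, limma adjusted p 0.0177), and the change under 2,5-DCB was 0.66 (adjusted p 0.437). With 2,5-DCB replicate 1 left out, the gene was also called higher under 2,5-DCB. The 4'-OH-2,5-DCB call was lost without control replicate 1, 2 or 3 or 4'-OH-2,5-DCB replicate 2 (adjusted p 0.0682, 0.0777, 0.0730 and 0.0515).

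AT2G38390 had 4.71, 5.05 and 4.94 under 2,5-DCB and 6.91, 5.76 and 6.27 under 4'-OH-2,5-DCB, against 4.30, 4.47 and 4.30 in the control. The 3 groups did not overlap. It rose 3.89-fold under 4'-OH-2,5-DCB (1.96, SE 0.26, limma adjusted p 0.00741), the smallest adjusted p of the family in that comparison, and its change of 0.54 under 2,5-DCB had an adjusted p of 0.367. The call held with any 1 array left out and missed with the 6 arrays of those 2 groups alone (adjusted p 0.0530).

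AT2G35380 read 5.30, 5.36 and 5.53 under 2,5-DCB and 6.64, 6.62 and 5.87 under 4'-OH-2,5-DCB, against 5.05, 4.89 and 4.07 in the control. Its groups were again separate, with 4'-OH-2,5-DCB on top, where it rose by 1.70 (SE 0.29, limma adjusted p 0.0189). That call was lost without control replicate 2, control replicate 3 or 4'-OH-2,5-DCB replicate 2 (adjusted p 0.0706, 0.0545 and 0.0614), and with the compared arrays alone (adjusted p 0.0938).

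AT5G64100, a root-expressed gene, had 4.78, 4.78 and 4.79 under 2,5-DCB and 6.02, 5.56 and 5.08 under 4'-OH-2,5-DCB, against 4.08, 4.35 and 4.20 in the control. The groups did not overlap, and its values on 2,5-DCB replicates 1 and 2 were identical as deposited. It rose by 1.34 under 4'-OH-2,5-DCB (SE 0.22, limma adjusted p 0.0172) and had a change of 0.57 under 2,5-DCB (adjusted p 0.237), which passed without 4'-OH-2,5-DCB replicate 1 (adjusted p 0.0315). Without control replicate 1, 2 or 3 or 4'-OH-2,5-DCB replicate 2 the call was lost (adjusted p 0.0743, 0.0706, 0.0684 and 0.0518), and likewise with the compared arrays alone (adjusted p 0.0908).

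The root-expressed genes were set beside the other members. All 15 had a change above 0 under both exposures, with a median of 0.56 under 2,5-DCB and one of 0.89 for 4'-OH-2,5-DCB. The 37 other genes had medians of 0.29 and 0.34, with 26 and 30 of them above 0. Of all 16722 probe sets, 9318 and 10037 were above 0. Calls were made for 2 root-expressed genes with 2,5-DCB and 3 with 4'-OH-2,5-DCB, and for 5 and 4 of the others. Among all probe sets 1.82% and 1.00% were called higher. The groups did not overlap, with the exposed arrays above, for 8 of the 15 under each exposure and for 14 and 12 of the 37. The shares of all probe sets were 16.8% and 11.2%. Without 4'-OH-2,5-DCB replicate 1 the root-expressed median under 4'-OH-2,5-DCB was 0.98 and that of the others 0.17, with 13 of 15 and 22 of 37 above 0. After quantile normalization 13 of the 15 were above 0 under 4'-OH-2,5-DCB, and their median was 0.54. The same scaling moved the median of all tested probe sets in that comparison to -0.04, against 0.10 in the deposited values. Relative to those medians of all probe sets, 14 of the 15 root-expressed genes were higher after quantile normalization and 15 of 15 as deposited.

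Root-expressed members below the threshold included AT2G18980, with 5.73, 5.73 and 5.58 under 2,5-DCB and 5.21, 6.52 and 5.83 under 4'-OH-2,5-DCB, against 5.18, 4.82 and 4.51 in the control. Its changes were 0.84 (limma adjusted p 0.197) and 1.02 (adjusted p 0.127), and both calls were made without 4'-OH-2,5-DCB replicate 1 (adjusted p 0.0371 and 0.0169). AT3G01190 had changes of 0.64 and 1.01, AT3G21770 of 0.56 and 0.96, AT5G17820 of 0.41 and 0.95, and AT5G15180 of 0.15 and 0.89, none of which passed on all arrays. Without 4'-OH-2,5-DCB replicate 1, AT3G21770 (1.18, adjusted p 0.0244) and AT5G17820 (1.32, adjusted p 0.0124) were called under 4'-OH-2,5-DCB. PRXCA, also called peroxidase 33 and known from the oxidative burst that follows pathogen recognition, had 4.86, 4.76 and 5.24 under 2,5-DCB and 4.68, 4.87 and 4.75 under 4'-OH-2,5-DCB, against 4.44, 4.06 and 4.45 in the control. All its exposed arrays lay above the control arrays, with changes of 0.64 (adjusted p 0.0957) and 0.45 (adjusted p 0.255). Its 2,5-DCB call was made without 4'-OH-2,5-DCB replicate 1 (adjusted p 0.0374). The changes of AT1G34510 and AT1G30870, whose means over the 9 arrays lay below the 25th percentile, were 0.12 and 0.62 under 2,5-DCB and 0.30 and 0.11 under 4'-OH-2,5-DCB, and may be background.

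Of the 6 root and leaf markers, PYK10 passed under 4'-OH-2,5-DCB and LHCB4.2 under 2,5-DCB. PYK10, a root beta-glucosidase gene, read 11.22, 11.44 and 11.74 under 2,5-DCB and 11.32, 12.10 and 11.67 under 4'-OH-2,5-DCB, against 10.64, 10.31 and 10.81 in the control. Its change was 0.88 with 2,5-DCB (limma adjusted p 0.0770) and 1.11 with 4'-OH-2,5-DCB (adjusted p 0.0438). That call was lost without any single array other than 4'-OH-2,5-DCB replicate 1, with an adjusted p of 0.0657 to 0.190, and also with array medians centred (0.0691), with all probe sets adjusted for (0.0534) and with the compared arrays alone (adjusted p 0.129). The root hair expansin genes EXPA7 and EXPA18 had 0.43 and 0.20 under 2,5-DCB and 0.55 and 0.25 under 4'-OH-2,5-DCB. Both were dim, and EXPA18 lay below the 25th percentile on 4 arrays, so its changes may be background. The summed signal of the 3 root markers, nearly all of it from PYK10, was 11.23 to 11.75 under 2,5-DCB and 11.33 to 12.11 under 4'-OH-2,5-DCB, against 10.33 to 10.83 in the control (log2). For the leaf markers it was 11.56 to 11.80 and 11.55 to 12.07, against 12.12 to 12.21, with much of it from RCA. The 11.55 came from 4'-OH-2,5-DCB replicate 1, and replicates 2 and 3 had 12.04 and 12.07. RCA had changes of -0.39 and -0.18 (limma adjusted p 0.347 and 0.59) and LHCB4.1 of -0.50 and -0.50 (adjusted p 0.251 and 0.241). The antenna protein gene LHCB4.2 fell by 0.95 under 2,5-DCB (limma adjusted p 0.0308) and had -0.57 under 4'-OH-2,5-DCB (adjusted p 0.184). The 2,5-DCB call was lost without any 1 control array or 2,5-DCB replicate 2 or 3 (adjusted p 0.0829 to 0.135). It was also lost with the replicate number as a block (adjusted p 0.0758). The 3 root markers had changes above 0 and the 3 leaf markers below 0 under both exposures. Only PYK10 and LHCB4.2 passed, each under 1 exposure. The part of the markers in the rise of the root-expressed peroxidases was not tested, and in whole plants more cells of a type and more RNA per cell cannot be told apart.

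**Figure D3:**
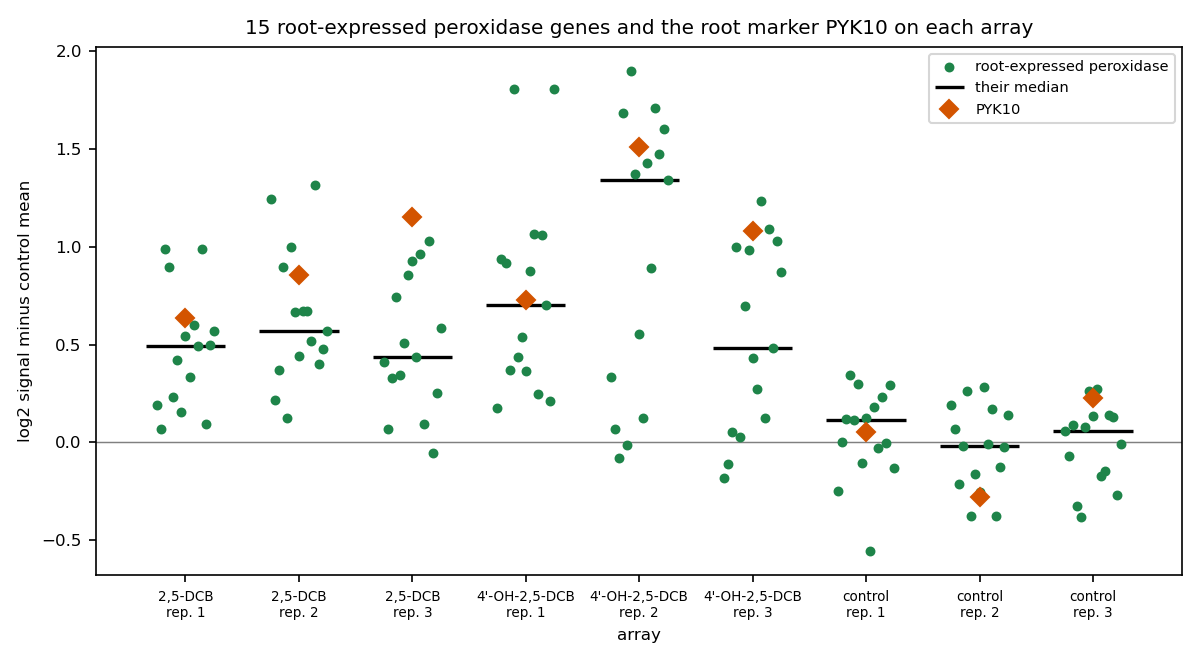
Log2 signal minus the control mean of the same gene (y axis) for 15 root-expressed peroxidase genes (green points, black line at their median) and PYK10 (orange diamond) on each of the 9 arrays (x axis). The medians lie between 0.43 and 0.57 on the 2,5-DCB arrays and between 0.48 and 1.34 on those of 4'-OH-2,5-DCB, against -0.02 to 0.12 on the control arrays.

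On replicate 2 of 4'-OH-2,5-DCB, both the median of the root-expressed peroxidases (1.34 above the control mean) and PYK10 (1.51) were at their highest. On the 2,5-DCB arrays PYK10 stood 0.64, 0.86 and 1.15 above its control mean, while the peroxidase median stood at 0.49, 0.57 and 0.43. Among that group's arrays PYK10 was highest on replicate 3, where the peroxidase median was lowest. Those medians differed little, and how PYK10 relates to them was not tested. Without 4'-OH-2,5-DCB replicate 2 the root-expressed median under that exposure was 0.59, close to the 0.52 of the other members.

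Members with adjacent protein-coding genes in RefSeq TAIR10.1 formed 6 pairs with a probe set for both genes, and did not always move alike. Neighbouring copies are similar in sequence, so a probe set may pick up its neighbour's transcript. Beside Prx37, AT4G08780 read 4.42, 5.55 and 6.70 under 2,5-DCB and 5.07, 6.52 and 6.08 under 4'-OH-2,5-DCB, against 4.36, 3.87 and 3.48 in the control. All exposed arrays were above all control arrays, but those of 2,5-DCB spread widely (SD 1.14). Its changes of 1.65 and 1.99 did not pass (limma adjusted p 0.156 and 0.0994), and the 4'-OH-2,5-DCB change passed without replicate 1 of that group (2.40, adjusted p 0.0431). AT2G38380, next to AT2G38390, read 7.39, 7.62 and 7.85 under 2,5-DCB and 7.57, 9.09 and 8.88 under 4'-OH-2,5-DCB, against 7.14, 7.43 and 7.56 in the control. Only its 4'-OH-2,5-DCB arrays all exceeded the control, narrowly so for replicate 1. The changes were 0.24 (adjusted p 0.901) and 1.14 (adjusted p 0.139), and the second was called without replicate 1 of that group (1.61, adjusted p 0.00311).

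In the pair of AT2G18140 and AT2G18150 the second gene had 6.22, 7.36 and 7.82 under 2,5-DCB and 6.85, 8.78 and 8.60 under 4'-OH-2,5-DCB, against 6.15, 6.81 and 7.14 in the control. Its groups overlapped under both exposures. The 4'-OH-2,5-DCB change of 1.38 did not pass (limma adjusted p 0.248) and became 1.99 without replicate 1 of that group (adjusted p 0.0354). AT2G18140 had changes of 0.04 and 0.17, and its 4'-OH-2,5-DCB change became -0.19 without that array. AT5G19880 had 3.71, 4.22 and 4.79 under 2,5-DCB and 4.52, 3.28 and 3.02 under 4'-OH-2,5-DCB, against 2.73, 3.22 and 3.45 in the control. Its 2,5-DCB arrays lay above the control, with a change of 1.11 (adjusted p 0.204, and 0.0365 without 4'-OH-2,5-DCB replicate 1), and its neighbour AT5G19890 had 0.29. AT5G58390 and AT5G58400 had -0.07 and 0.08 under 2,5-DCB and -0.38 and 0.36 under 4'-OH-2,5-DCB, and neither passed. With 4'-OH-2,5-DCB replicate 1 left out, the changes under that exposure were -0.20 and -0.24, so the opposite signs rested on that array. AT5G58400 lay below the 25th percentile on 8 arrays, so its changes may be background. With all arrays both neighbours were called in the pair AT4G37520 and AT4G37530, under 2,5-DCB. Without 4'-OH-2,5-DCB replicate 1 both were also called under 4'-OH-2,5-DCB for AT2G38380 with AT2G38390 (adjusted p 0.00311 and 0.00305) and for Prx37 with AT4G08780 (adjusted p 0.00764 and 0.0431).

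**Figure D4:**
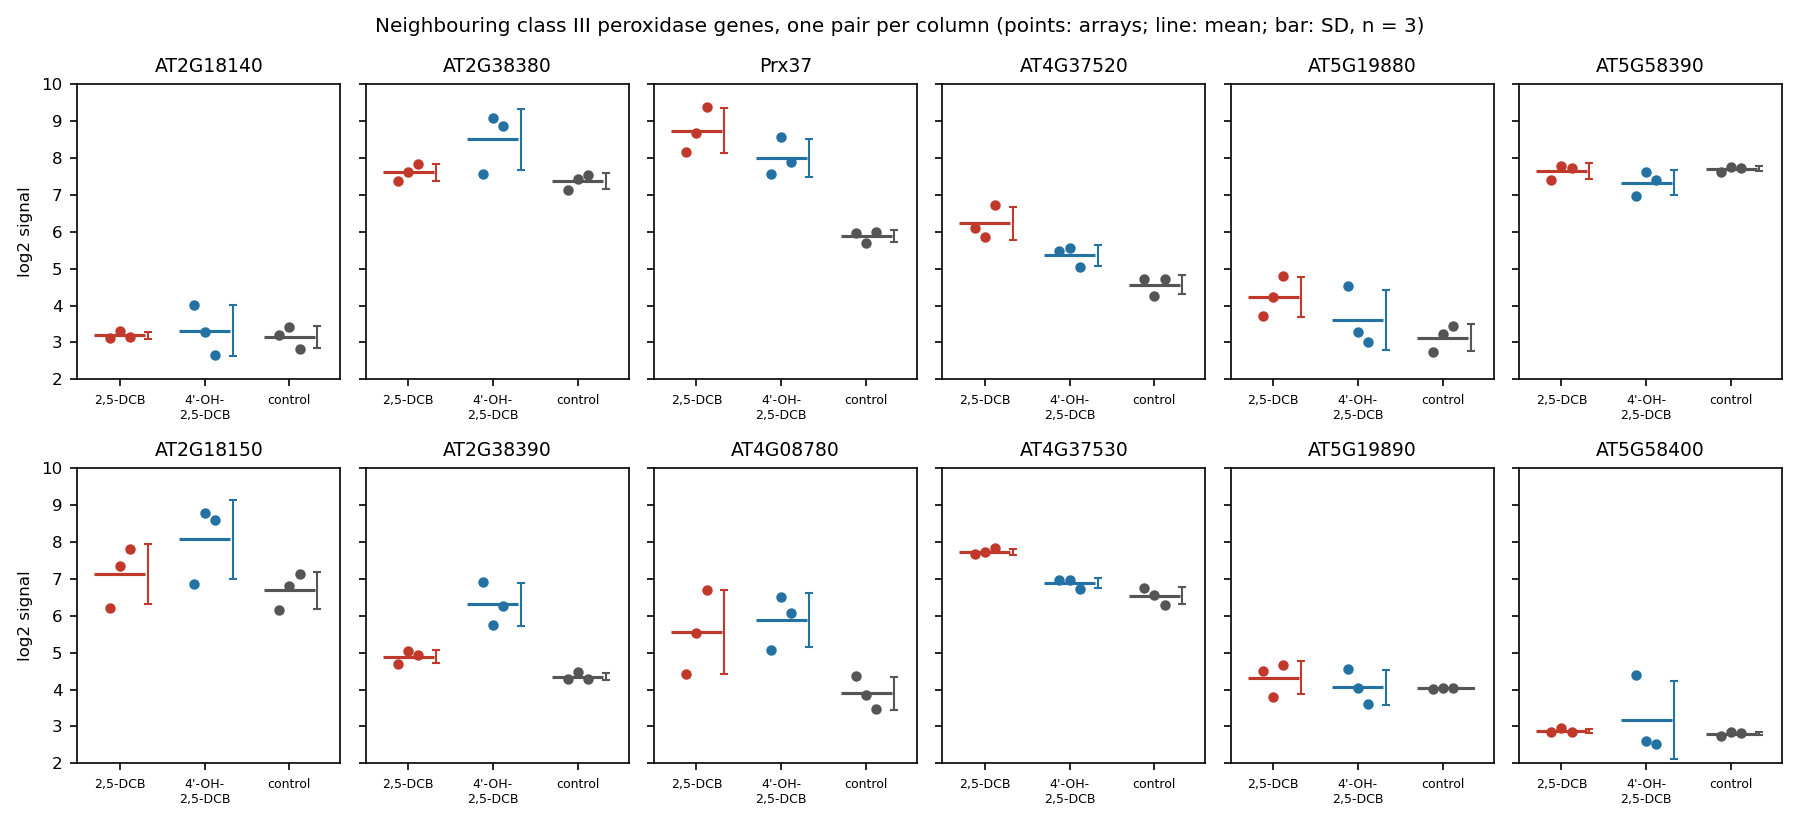
Log2 signal (y axis) of 6 pairs of neighbouring peroxidase genes, a pair per column, by group (x axis: 2,5-DCB, 4'-OH-2,5-DCB, control); points are arrays, lines group means and bars SD (n = 3). Signals of different probe sets are not comparable as levels; in AT2G18150 and AT2G38380, replicate 1 of 4'-OH-2,5-DCB stands below the other 2 arrays of its group.

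Of the 45 members not called under 2,5-DCB, 34 had changes above 0 and 11 below, from -0.51 to 1.65. Under 4'-OH-2,5-DCB the 45 uncalled members had 38 above and 7 below, from -0.52 to 1.99. The falls measured were small. AT1G71695 read 8.58, 8.23 and 8.44 under 2,5-DCB and 7.96, 8.81 and 8.74 under 4'-OH-2,5-DCB, against 9.06, 8.97 and 8.76 in the control. Its 2,5-DCB arrays lay below the control and its 4'-OH-2,5-DCB arrays overlapped it, with changes of -0.51 (limma adjusted p 0.338) and -0.42 (adjusted p 0.393). AT4G25980 read 5.73, 5.44 and 5.40 under 2,5-DCB and 5.35, 5.23 and 5.73 under 4'-OH-2,5-DCB, against 5.72, 5.90 and 6.26 in the control, and the exposed arrays overlapped the control ones by a narrow margin (changes -0.43 and -0.52). AT3G50990, also named PER36, had -0.45 under 2,5-DCB, with signals of 2.82, 3.10 and 3.10 under it and 3.67, 2.90 and 2.82 under 4'-OH-2,5-DCB, against 3.32, 3.94 and 3.10 in the control. AT5G58390 had -0.38 under 4'-OH-2,5-DCB, with signals of 7.40, 7.80 and 7.74 under 2,5-DCB and 6.98, 7.64 and 7.40 under 4'-OH-2,5-DCB, against 7.64, 7.77 and 7.74 in the control. In both genes the exposed and control arrays overlapped.

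AT5G39580 read 5.58, 6.39 and 5.58 under 2,5-DCB and 6.16, 5.997 and 5.36 under 4'-OH-2,5-DCB, against 4.52, 4.75 and 5.51 in the control. Control replicate 3 lay above 4'-OH-2,5-DCB replicate 3 and just below the 2,5-DCB arrays, and the changes of 0.92 and 0.91 did not pass (limma adjusted p 0.193 and 0.208). Probe-set signals do not compare as transcript levels between genes. AT1G34510 (2.18), AT3G03670 (2.54) and AT1G24110 (2.76) had the dimmest mean signals and lay below the 25th percentile of each array, so their changes may be background. The brightest probe sets were those of AT3G32980 (8.39), AT1G71695 (8.62) and PRXR1 (12.08). PRXR1 had changes of -0.18 and -0.27. AT3G32980 passed under 4'-OH-2,5-DCB without replicate 1 of that group (1.21, limma adjusted p 0.0147) and not on all arrays. Of the 52 genes 5 had a mean below the 25th percentile of probe sets. PRX71 (AT5G64120), known for lignin formation, had changes of 0.40 and 0.13 (adjusted p 0.266 and 0.655), and PRX25 (AT2G41480) of 0.38 and 0.44 (adjusted p 0.811 and 0.556). With 4'-OH-2,5-DCB replicate 1 left out, their changes under that exposure were 0.20 and -0.10.

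The remaining members lay between these. AT2G37130 (0.68 and 0.73) and AT5G14130 (0.50 and 0.76) had all exposed arrays above the control under both exposures. AT4G33420 (0.67 and -0.04) and the root-expressed AT1G49570 (0.56 and 0.30) and AT3G49960 (0.48 and 0.42) were apart from the control under 2,5-DCB alone, and AT2G22420 lay below it there (-0.35 and 0.06). Groups overlapped under both exposures in the root-expressed AT4G26010 (0.37 and 0.42) and AT2G39040 (0.23 and 0.61), and in AT2G24800 (0.22 and 0.30), AT1G14550 (0.20 and 0.33), AT2G34060 (-0.02 and 0.23), AT4G17690 (-0.02 and 0.12), AT3G28200 (-0.15 and 0.21) and AT1G44970 (-0.34 and -0.08). Each pair gives the 2,5-DCB change first, and none passed. Several 4'-OH-2,5-DCB changes rested on replicate 1 of that group. With it left out, AT2G39040 had 0.008, AT1G49570 -0.01, AT1G14550 -0.04 and AT4G17690 -0.47. Others grew, AT4G26010 to 0.51 and AT4G33420 to 0.40.

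Between the exposures 0 of the 52 genes passed (limma adjusted p under 0.05, also 0 of all 16722 probe sets), and 12 had an unadjusted p under 0.05, against 9.90% of all probe sets. The 4'-OH-2,5-DCB arrays lay all above those of 2,5-DCB for 9 genes (6.89% of all probe sets) and all below for 3 (8.35%). AT2G38390 was higher in the 4'-OH-2,5-DCB plants than in the 2,5-DCB plants by 1.41 (95% interval 0.82 to 2.01, adjusted p 0.139) and AT4G36430 by 1.44 (0.64 to 2.23, adjusted p 0.228). AT4G37530 was lower there by 0.85 (-1.23 to -0.48, adjusted p 0.143), AT4G37520 by 0.88 (-1.45 to -0.30, adjusted p 0.296) and PRX52 by 0.93 (-1.58 to -0.28, adjusted p 0.329). The interval of Prx37, -1.48 to 0.02 around -0.73, and that of AT4G30170, -0.35 to 0.71 around 0.18, contained 0. A gene called under 1 exposure and missed under the other is therefore not shown to differ between them.

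Without 4'-OH-2,5-DCB replicate 1, 4 genes passed between the exposures (0.179% of all probe sets were higher and 0.197% lower under 4'-OH-2,5-DCB). AT1G68850 was higher by 1.33 (limma adjusted p 0.0348), AT2G38380 by 1.36 (adjusted p 0.0348) and AT2G38390 by 1.12 (adjusted p 0.0490), and PRX52 was lower, with -1.28 (adjusted p 0.0348). AT1G68850 read 4.70, 5.92 and 5.32 under 4'-OH-2,5-DCB and 4.25, 4.45 and 4.19 under 2,5-DCB, and 4.28, 4.48 and 4.49 in the control. Its 4'-OH-2,5-DCB arrays stood apart from both other groups, of which the 2,5-DCB and control arrays overlapped. Against the control its 4'-OH-2,5-DCB change was 0.90 (adjusted p 0.127) on all arrays and passed without replicate 1 of that group (1.21, adjusted p 0.00996).

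Of the 12 tested class III peroxidase genes outside the 60, 0 were higher and 1 lower under each exposure (of all probe sets 1.82% were higher and 2.82% lower under 2,5-DCB, and 1.00% and 1.90% under 4'-OH-2,5-DCB). They had medians of 0.07 with 2,5-DCB and 0.12 with 4'-OH-2,5-DCB, beside 0.04 and 0.10 for all probe sets. The gene that fell was AT5G51890, with 5.97, 5.57 and 5.55 under 2,5-DCB and 5.24, 5.79 and 5.74 under 4'-OH-2,5-DCB, against 6.47, 6.49 and 6.60 in the control. All exposed arrays were below the control (changes -0.82 and -0.93, limma adjusted p 0.0480 and 0.0393), and the calls were lost without any single array other than 4'-OH-2,5-DCB replicate 1 (adjusted p 0.0574 to 0.195 and 0.0512 to 0.146). The 2,5-DCB call was also lost with array medians centred (adjusted p 0.0768), with all probe sets adjusted for (0.069) and with the replicate number as a block (0.121). AT5G40150 had -0.68 under 2,5-DCB (adjusted p 0.0934) and AT2G43480 0.99 under 4'-OH-2,5-DCB (adjusted p 0.0978). AT5G66390 had 0.80 and 0.87 and AT5G64110 had 0.58 and 0.35, the second with all exposed arrays above the control, and neither passed. The 60 were listed with results of these data known, so the lists are described side by side, and their difference was not tested.

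Genes that supply or receive the peroxidase reaction were thinly covered. Of 20 extensin genes, whose proteins peroxidases cross-link, 11 were tested; 1 was higher with 2,5-DCB and 0 with 4'-OH-2,5-DCB, 0 were lower, and the medians were 0.51 and 0.66. Of all probe sets 1.82% and 1.00% were higher, with medians of 0.04 and 0.10. The called gene, AT1G26240, had 6.56, 7.01 and 7.48 under 2,5-DCB and 6.13, 4.37 and 3.55 under 4'-OH-2,5-DCB, against 3.04, 3.41 and 4.14 in the control. The 2,5-DCB arrays lay far above the control ones, while the 4'-OH-2,5-DCB arrays overlapped the control and lay below those of 2,5-DCB (limma adjusted p 0.0125 and 0.351). Its 2,5-DCB call was lost without control replicate 1 or 2 or 2,5-DCB replicate 2 or 3 (adjusted p 0.0505, 0.0644, 0.0597 and 0.0628). AT2G43150 had changes of 1.45 (adjusted p 0.0643) and 1.44 (adjusted p 0.0810), and AT1G23720 had 1.20 under 4'-OH-2,5-DCB (adjusted p 0.0931).

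No gene passed in the other lists. Of 10 NADPH oxidase genes, which make the superoxide that yields hydrogen peroxide, 2 were tested: AT4G25090 had -0.62 with 2,5-DCB and -1.20 with 4'-OH-2,5-DCB, and AT4G11230 had 0.52 and 0.33. Of 18 monolignol synthesis genes 2 were tested, HCT at 0.08 and 0.14 and CCR2 at -0.13 and 0.39. Of 17 laccase genes, which also polymerise lignin, 2 were tested, LAC16 at -0.13 and 0.61 and the very dim AT5G01050 at 0.06 and 0.30. Of 11 catalase and ascorbate peroxidase genes, which remove hydrogen peroxide, SAPX had 0.80 and 0.22 and TAPX -0.89 and -1.34. On 4'-OH-2,5-DCB replicate 1 TAPX read 7.07, against 9.10 and 9.14 on replicates 2 and 3 and a control mean of 9.78. AT4G25090 read 2.79 on that array, against 4.34 and 4.01 (control mean 4.91). LAC16 read 5.63 on it, against 4.43 and 4.42 (control mean 4.21). The 4'-OH-2,5-DCB changes of these genes therefore lean on that array. None of the 7 Casparian strip genes listed had a probe set with 1 gene.

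Over the 9 arrays the non-member genes most like Prx37 were AT5G44820, AT4G35380, AT2G47380, AT3G05150 and AT5G25940, with Pearson correlations of 0.99, 0.97, 0.97, 0.97 and 0.97. AT4G35380, for one, averaged 5.67 with 2,5-DCB and 5.47 with 4'-OH-2,5-DCB, against 4.27 in the control. Among the members PRXCA (0.93), AT5G06730 (0.91) and AT4G37520 (0.91) came closest, and the neighbour AT4G08780 had 0.86. Over all tested probe sets they ranked 50, 85, 89 and 250 in likeness to Prx37, so many genes outside the family were closer. These correlations describe 9 arrays that share the 3 group means and carry no test.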

How the data were processed

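Total RNA of whole plants was hybridised to whole-transcript Affymetrix arrays. The values are log2 signals, deposited by the authors as 1 value per probe set and array. They come, per the submitters' processing notes, from the program Affymetrix Expression Console. The sources used here do not give its version, or how probes were summarized and corrected for background. The table held 38408 probe sets. Of these 16722 were paired with 1 gene by the platform annotation and tested, 759 with several genes, and 20927 are unnamed here. Names were updated through RefSeq TAIR10.1 (16715 matched). No coordinates or sequences are printed.

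The lmFit and eBayes functions of limma 3.58.1, run in R 4.3.3, were applied to all 9 arrays with 1 term per group, without further normalization. Benjamini-Hochberg adjustment ran over all 16722 probe sets, and a gene was called at an adjusted p under 0.05 (two-sided). Intervals are 95% and unadjusted. The number of arrays limits the precision. The fit was tested on simulated data.

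Values on every array are given for members called in any comparison, Prx37, AT4G08780, and the 3 largest uncalled rises and falls per comparison with control. The root-expressed list rests on general knowledge and was not checked against an atlas. Other members shown were chosen after their values were seen. The members and all lists were chosen with earlier results of these data known. Alternatives were quantile normalization, median centring, a filter on dim probe sets, all probe sets, the compared arrays alone, trend and robust options, array weights, the replicate number as a block, and each array left out.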

Additional observations from a re-analysis of the deposited data

How the results depend on the processing

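Over 17 alternatives, 97 of 119 counts and medians stayed within 1.5 times the reported count or 1 SD between arrays. The 97 includes medians that could not move, because the alternative changed only the test or left out an array of the uninvolved group. For the root-expressed median under 4'-OH-2,5-DCB, 0.886, that SD was 0.447, a wide margin. The 97 is therefore not a measure of how stable the results were. With array weights the peroxidase genes called were 14 under 2,5-DCB, 19 under 4'-OH-2,5-DCB and 5 between the exposures. Over all 16722 probe sets that fit called 1151 higher and 1299 lower, 923 and 904, and 166 and 183, against 305 and 472, 168 and 318, and 0 and 0 as reported. The count under 4'-OH-2,5-DCB was 2 with the arrays of the compared groups alone. With 1 array left out the counts ranged from 2 to 12, from 1 to 15 and from 0 to 4. The root-expressed median ranged from 0.465 to 0.618 under 2,5-DCB and from 0.593 to 0.977 under 4'-OH-2,5-DCB, and the median of the other members from 0.161 to 0.334 and from 0.174 to 0.657. After quantile normalization the root-expressed median under 2,5-DCB was 0.443. The array numbers are not stated to mark a shared box, and same-numbered arrays did not deviate together (correlations of deviations from -0.247 to 0.0742). With the replicate block the 2,5-DCB count was 4 and the 4'-OH-2,5-DCB count 6. Single genes were followed for a chosen set, which leaves out many of the 52 members. Many values of that set could not move. In those fits the alternative altered only the test or the probe sets entered, or left out an array of the uninvolved group. Of all 1324 values 1317 kept their direction, which is therefore not a measure of stability. The exceptions, none of which passed, were AT5G01050 under 2,5-DCB (-0.0345 after quantile normalization, and -0.0655 to 0.123 with 1 array left out), HCT under 2,5-DCB (-0.043 to 0.188 with 1 array left out), AT4G11230 under 4'-OH-2,5-DCB (-0.0719 with array weights, and -0.0529 to 0.613 with 1 array left out) and, between the exposures, AT4G30170 (-0.0363 to 0.290) and AT4G08780 (-0.235 to 0.904) with 1 array left out. Members outside that set reversed as well. With 4'-OH-2,5-DCB replicate 1 left out, 35 of the 52 members were above 0 under 4'-OH-2,5-DCB, against 45 on all arrays. For example, AT4G17690 went from 0.12 to -0.47 and AT5G58400 from 0.36 to -0.24. The cause of the reversals was not tested. The means of 5 members lay below the 25th percentile, where background limits what can be measured.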

Other observations

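Some probe sets carried exactly the same deposited value on several arrays. Among the 52 peroxidase genes, 17 had at least 1 value shared by 2 or more arrays, and 11 shared one within a group. Over all 16722 tested probe sets the shares were 45.3% and 24.6%. AT5G64100, with an SD of 0.0068 under 2,5-DCB, and AT5G19890, with an SD of 0.0225 in the control, are among them, so their small spreads rest in part on repeated values.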
